A study of Mus musculus with 24 samples.

Results

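The classical complement pathway was followed in choroidal tissue of the mouse through 8 genes that were taken by name: C1qa, C1qb and C1qc, C1ra and C1s1, C4b, C2 and Serping1. All 8 were found among the 56065 genes of the table, were above 0 in each of the 24 libraries and passed the filter on low values, a mean normalized count of at least 10. The tissue is the pigment epithelium, choroid and sclera, which the study calls choroid. Mice carried a homozygous germline deletion of the first exons of Ceacam1 (Ceacam1-/-) or were wild type littermates on a C57BL/6J background. The study's methods give young mice of both sexes, and the labels give neither the sex nor the age behind a library. Wild type mice gave 4 libraries without and 9 with laser treatment, and Ceacam1-/- mice gave 4 without and 7 with it. Laser treatment meant 6 spots per eye (150 mW, 200 µm, 100 ms) to induce choroidal neovascularization, the growth of new vessels from the choroid, and the interval to collection is not given in the sources used here. Normalized counts summed to between 23704346 and 35094410 per library.

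In the classical pathway, the recognition molecule C1q binds antibody complexes, pentraxins or surfaces of dying cells and activates the proteases C1r and C1s that travel with it. C1s cleaves C4 and C2, whose fragments form the convertase that cleaves C3, and C1 inhibitor blocks C1r and C1s. C1q is made mostly by macrophages and microglia, whereas C1r, C1s and C1 inhibitor are made outside the liver mostly by stromal cells such as fibroblasts. In the eye, complement activation at the border of pigment epithelium and choroid is studied above all in macular degeneration.

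The 3 C1q genes lie side by side on chromosome 4 (GRCm39), from 136606009 (C1qb) to 136626161 (C1qa), a stretch of 20153 bases on the reverse strand. C1ra and C1s1 are neighbours on chromosome 6, 6894 bases apart, and face each other's ends. C4b and C2 lie in the major histocompatibility region of chromosome 17, and Serping1 on chromosome 2. RefSeq promoter windows (table build GRCm38.p6, placed on GRCm39 by exact match) were given for 4 of the 8 genes, C1qb, C1qc, C1ra and C1s1. The 250 bases before the start were searched on both strands for the core of PU.1 (GAGGAA), a factor of myeloid cells, and for the letters of GAS, ISRE, NF-kB and the TATA box (its letters here being TATAAA). The windows of C1qb and C1qc each held the PU.1 core and NF-kB letters, which 23.1% and 17.3% of the 27025 promoters of this length also held. Of the other genes, C1s1 held NF-kB letters in 1 of its 2 windows and C1ra held none of the 5 motifs. In the annotation used for gene positions, these windows are not all upstream sequence. Most of the C1ra window lies inside the gene, which begins at 124489364, and the C1s1 windows lie inside the span of C1s1, which ends at 124559389. The NF-kB letters of C1qc, at -40 to -31, also lie inside its gene. The letters of GAS (TTCNNNGAA), ISRE and TATA, held by 7.18%, 3.04% and 12.97% of all promoters, were in none of these windows. The sequences of C1qb and C1qc are shown because both belong to the C1q chains, the members called with laser in wild type, and hold the PU.1 core. The first is chr4:136613512-136613761 and the second chr4:136620377-136620475, the 99 bases of its window that precede every annotated exon, both on the reverse strand and written 5′ to 3′ with matches in capitals.
C1qb: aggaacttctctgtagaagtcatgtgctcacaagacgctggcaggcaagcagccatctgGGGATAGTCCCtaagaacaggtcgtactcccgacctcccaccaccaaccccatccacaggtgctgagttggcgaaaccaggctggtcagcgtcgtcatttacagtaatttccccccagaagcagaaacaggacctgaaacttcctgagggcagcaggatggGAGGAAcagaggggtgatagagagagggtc
C1qc: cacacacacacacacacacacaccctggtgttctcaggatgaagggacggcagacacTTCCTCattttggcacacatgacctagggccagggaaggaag
In C1qb the capitals mark overlapping forward and reverse NF-kB matches and, at positions -30 to -25 from the start, the PU.1 core. In C1qc they mark the core read on the other strand, at -193 to -188.

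The deleted gene was checked first. Ceacam1, a cell adhesion receptor of endothelial and myeloid cells, had normalized counts of 958, 1242, 4596 and 5027 in wild type libraries without laser and 405, 505, 508 and 1171 in those labelled Ceacam1-/-. With laser it ranged from 774 to 8367 (median 996) in 9 wild type libraries and from 67.8 to 905 (median 335) in 7 Ceacam1-/- libraries. Levels were lower in the libraries labelled Ceacam1-/- but overlapped in both settings, and the counts cover the whole gene, not the deleted exons alone. The log2 difference was -1.95 ± 0.60 (SE) without laser (limma, Benjamini-Hochberg adjusted p = 0.999) and -2.17 ± 0.52 with laser (adjusted p = 0.104). The study itself reports successful deletion, from separate measurements of Ceacam1 RNA in retina and choroid and from staining of the protein.

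A set of 5 libraries stood apart by photoreceptor RNA. The 8 photoreceptor markers, none at 0 in any library, had a mean log2 level of at least 14.99 in library 21 (wild type, no laser), library 23 (Ceacam1-/-, no laser) and libraries 14, 15 and 18 (Ceacam1-/-, laser), against at most 13.88 in the other 19. Their summed normalized counts were between 521797 and 982102 in these 5 libraries. Libraries 14, 15 and 18 make up 3 of the 7 laser-treated Ceacam1-/- libraries, and no wild type laser library reached this level. The 8 pigment epithelium markers, led by Ttr and none at 0, were present in all groups, with summed median counts of 363201, 365949, 386942 and 182926 in wild type and Ceacam1-/- without laser and wild type and Ceacam1-/- with laser. The members' laser differences, their genotype differences with laser and the correlations between sets of members are therefore given with and without libraries 14, 15 and 18. In bulk tissue, fewer cells of a type and less RNA per cell cannot be told apart.

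**Figure D1:**
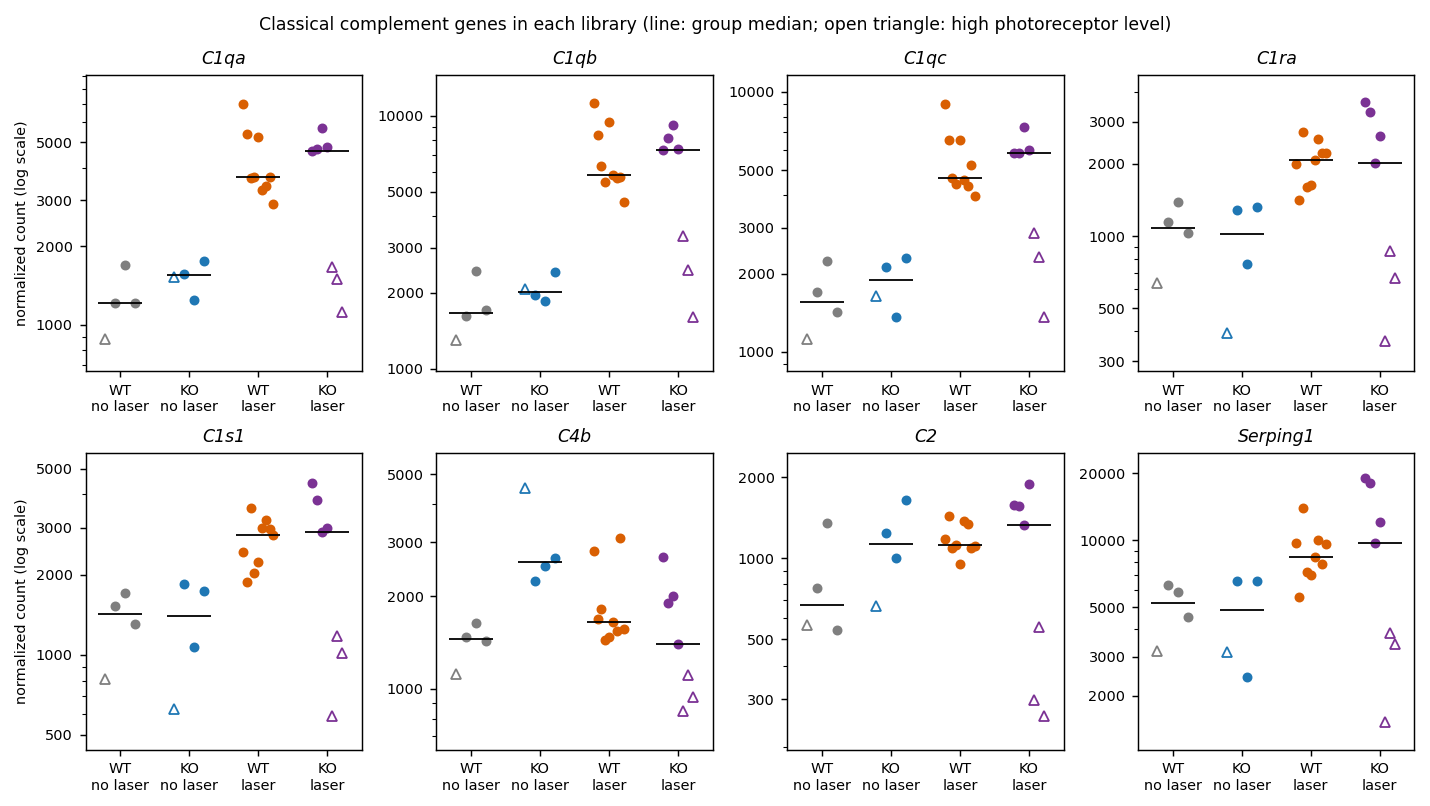
Normalized counts (log axis) of the 8 genes in each library of the 4 groups, with 1 point per library, a line at the group median and open triangles for the 5 libraries of high photoreceptor level. The 9 wild type laser libraries lie above all 4 wild type libraries without laser for C1qa, C1qb, C1qc, C1ra and C1s1, and the 3 open triangles of the Ceacam1-/- laser group lie at the bottom of that group in every panel.

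Per kilobase of the longest coding transcript, Serping1, which encodes C1 inhibitor, was the most abundant of the 8 in wild type tissue without laser, at 2085 ± 592 (SD, n = 4) normalized counts per kilobase. C1qa (911 ± 243) and C1qc (810 ± 239) followed and their ranges overlapped each other but not that of Serping1 or of C1s1 (424 ± 122). C1ra (352 ± 106), C2 (298 ± 139), C1qb (287 ± 77.6) and C4b (257 ± 39.6) came last, and from C1s1 downward each neighbour overlapped the next. The place of C1qb rests on an unusually long annotated transcript of 6146 bases. With its canonical transcript of 2532 bases, a length chosen after the values were seen, it reached 696 ± 188 and stood 4th, next to the other C1q chains. With laser in wild type, the order began with Serping1 (3716 ± 1030, n = 9), C1qa (3096 ± 974) and C1qc (2740 ± 805), whose ranges all overlapped. C4b was last in every group except Ceacam1-/- without laser, where it stood 4th at 543 normalized counts per kilobase.

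Laser treatment in wild type mice went with higher C1q. All 3 chains rose, C1qb 3.88-fold, C1qc 3.38-fold and C1qa 3.35-fold, and no member fell. The other 5 members did not pass the test, with log2 differences between 0.38 for C4b and 1.02 for C1s1. The 3 called members compare with 4.23% of all 19950 genes tested that were called higher and 1.05% called lower. The median log2 difference of the 8 members was 1.01, and that of all genes -0.10.

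C1qa, which encodes the A chain, had 885, 1211, 1215 and 1694 normalized counts in the 4 wild type libraries without laser. In the 9 with laser it ranged from 2892 to 6998, with a median of 3690. All laser libraries were above all libraries without laser, and the log2 difference was 1.75 ± 0.36 (SE; limma, adjusted p = 0.00414). C1qb, the B chain, had 1302, 1611, 1708 and 2429 without laser and ranged from 4575 to 11177 (median 5816) with it. Its groups did not overlap either (log2 difference 1.96 ± 0.36, limma adjusted p = 0.0016). C1qc, the C chain, had 1120, 1416, 1698 and 2242 without laser and ranged from 3963 to 8979 (median 4659) with it. The lowest laser library was again above the highest without laser (1.76 ± 0.34, limma adjusted p = 0.0026). In all, 5 of the 8 members had groups that did not overlap, the 3 chains with C1ra and C1s1, against 4.5% of all genes tested with every wild type laser library above every one without laser.

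Both proteases of C1 were higher after laser in every wild type library but did not pass the threshold. C1ra, which encodes the protease that activates itself and then C1s, had 636, 1025, 1142 and 1392 normalized counts without laser and ranged from 1420 to 2710 (median 2069) with it. Its log2 difference was 0.99 ± 0.46 (limma, adjusted p = 0.229). C1s1, whose product cleaves C4 and C2, had 814, 1309, 1525 and 1710 without laser and ranged from 1883 to 3549 (median 2810) with it. The highest library without laser stayed below the lowest with laser in both genes. For C1s1 the log2 difference was 1.02 ± 0.41 (limma, adjusted p = 0.157). Without the Ceacam1-/- laser libraries 14, 15 and 18, which enter only through the common estimate of the spread, the same differences passed, with adjusted p = 0.0224 for C1ra and 0.0105 for C1s1, and 5 members were called against 7.82% of 19723 genes called higher.

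Neither substrate of C1s passed the test. C4b, the mouse C4 that carries classical pathway activity, had 1116, 1431, 1473 and 1637 normalized counts in wild type libraries without laser and ranged from 1437 to 3092 (median 1654) with laser. Groups overlapped, with a log2 difference of 0.38 ± 0.27 (limma, adjusted p = 0.44). C2, the protease subunit of the convertase, had 543, 566, 773 and 1354 without laser and ranged from 952 to 1430 (median 1120) with it, and its difference was 0.64 ± 0.42 (adjusted p = 0.404). The high value of 1354 in library 26 produced the overlap. Serping1, the inhibitor, had 3162, 4539, 5866 and 6275 without laser and ranged from 5556 to 14031 (median 8397) with it. Of the 9 laser libraries, 8 were above all without laser and 1 overlapped, and its log2 difference was 0.84 ± 0.49 (limma, adjusted p = 0.345). With only the wild type libraries fitted, the same difference of Serping1 passed (limma, adjusted p = 0.028), against 8.13% of genes called higher. Those of C1ra and C1s1 passed in that fit too (0.00663 and 0.00526). Without the 3 Ceacam1-/- laser libraries of high photoreceptor level, Serping1 missed the threshold (limma, adjusted p = 0.0584).

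In Ceacam1-/- mice, laser treatment was followed by a wide spread of all members. Only C4b was called, and it was lower, whereas the C1q chains were 1.91-fold to 2.29-fold higher without passing the threshold. Of 19950 genes, 2.07% were called higher and 1.65% lower. Every member overlapped between laser and no laser, against 1.17% of genes whose laser libraries were all above the others. The median log2 difference of the members was 0.74, and that of all genes 0.02.

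C1qa had 1245, 1528, 1566 and 1755 normalized counts in the 4 Ceacam1-/- libraries without laser. With laser, libraries 18, 15 and 14 had 1122, 1493 and 1665, and libraries 4, 5, 7 and 6 had 4640, 4698, 4819 and 5699. The first set lay within the range without laser or below it and the second far above it, so that the log2 difference over all 7 was 0.93 ± 0.37 (limma, adjusted p = 0.157). C1qb had 1856, 1962, 2057 and 2410 without laser and 1596, 2449, 3357, 7290, 7361, 8155 and 9149 with it (1.20 ± 0.37, limma adjusted p = 0.0715, and 0.0426 without library 15). C1qc had 1366, 1646, 2117 and 2299 without laser and 1358, 2306, 2857, 5808, 5841, 5979 and 7331 with it (1.09 ± 0.35, adjusted p = 0.0813). C1qb and C1qc both passed without library 18 (limma, adjusted p = 0.0108 and 0.0118). In each chain the lowest 3 laser values were those of libraries 14, 15 and 18.

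C1ra had 393, 766, 1281 and 1321 without laser and 364, 670, 868, 2017, 2622, 3287 and 3626 with it, a log2 difference of 0.78 ± 0.48 (limma, adjusted p = 0.381). C1s1 had 628, 1070, 1733 and 1841 without laser and 587, 1014, 1179, 2902, 2987, 3802 and 4409 with it (0.68 ± 0.43, limma adjusted p = 0.389). Serping1 had 2439, 3156, 6562 and 6585 without laser and 1524, 3406, 3838, 9698, 12092, 18215 and 19055 with it (0.71 ± 0.51, limma adjusted p = 0.453). In these 3 genes, as in C1qa, 4 laser libraries were above all libraries without laser and 3 among or below them, whereas 6 of 7 were above in C1qb and C1qc. C2 had 666, 1004, 1245 and 1645 without laser and 260, 299, 554, 1328, 1561, 1575 and 1891 with it. Its 3 lowest values fell below every library without laser, and its log2 difference was -0.39 ± 0.44 (limma, adjusted p = 0.655). Leaving out 1 library moved these differences from 0.41 to 1.11 for C1ra, 0.36 to 0.96 for C1s1, 0.44 to 1.08 for Serping1 and -0.62 to -0.11 for C2, and none passed.

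C4b went the other way. It had 2248, 2503, 2670 and 4516 normalized counts in Ceacam1-/- libraries without laser and 845, 938, 1110, 1400, 1911, 2010 and 2679 with laser. Of the 7 laser libraries, 6 were below all 4 libraries without laser, and library 4 at 2679 was above 3 of them. The log2 difference was -0.997 ± 0.28, and C4b fell at the edge of the threshold (limma, adjusted p = 0.0496). Leaving out any of 20 of the 24 libraries ended the call, with adjusted p between 0.0534 and 0.135, and it held without libraries 1, 4, 6 and 17. Without libraries 14, 15 and 18 the difference was -0.56 ± 0.26 (limma, adjusted p = 0.197), and without all 5 libraries of high photoreceptor level, which leaves out the value of 4516, it was -0.34 ± 0.25 (0.399). With array weights, which give each library its own weight in the fit, it was -0.53 (0.117).

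Without libraries 14, 15 and 18, 6 of the 8 members rose in Ceacam1-/- mice, against 7.6% of 19723 genes called higher, and the same 6 had groups that did not overlap, against 9.18% of genes. The log2 differences were 1.95 ± 0.24 for C1qb (limma, adjusted p = 1.71e-05), 1.77 ± 0.24 for C1qc (5.88e-05) and 1.71 ± 0.24 for C1qa (6.12e-05). C1ra rose by 1.74 ± 0.32 (limma, adjusted p = 0.00113), Serping1 by 1.73 ± 0.33 (0.00142) and C1s1 by 1.52 ± 0.29 (0.00174). C2 had 0.54 ± 0.26 (adjusted p = 0.206). In the 3 libraries left out, the 12 myeloid markers summed to 10282, 13794 and 17592 against 35581 to 51478 in the other 4, and the 8 fibroblast markers to between 45932 and 111136 against 426496 to 672550. Endothelial markers (8847 to 17712 against 25398 to 39822) and pigment epithelium markers (40873 to 69806 against 182926 to 323171) were also lower there. These levels moved with those of the members, and their part in the result was not tested. Leaving out all 5 libraries of high photoreceptor level also removes such libraries without laser. The same 6 members were then called, against 8.66% of genes called higher. The rises were smaller for C1ra (1.37 ± 0.25), C1s1 (1.20 ± 0.23) and Serping1 (1.59 ± 0.34). Those of C1qa, C1qb and C1qc were 1.71, 1.95 and 1.72.

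**Figure D2:**
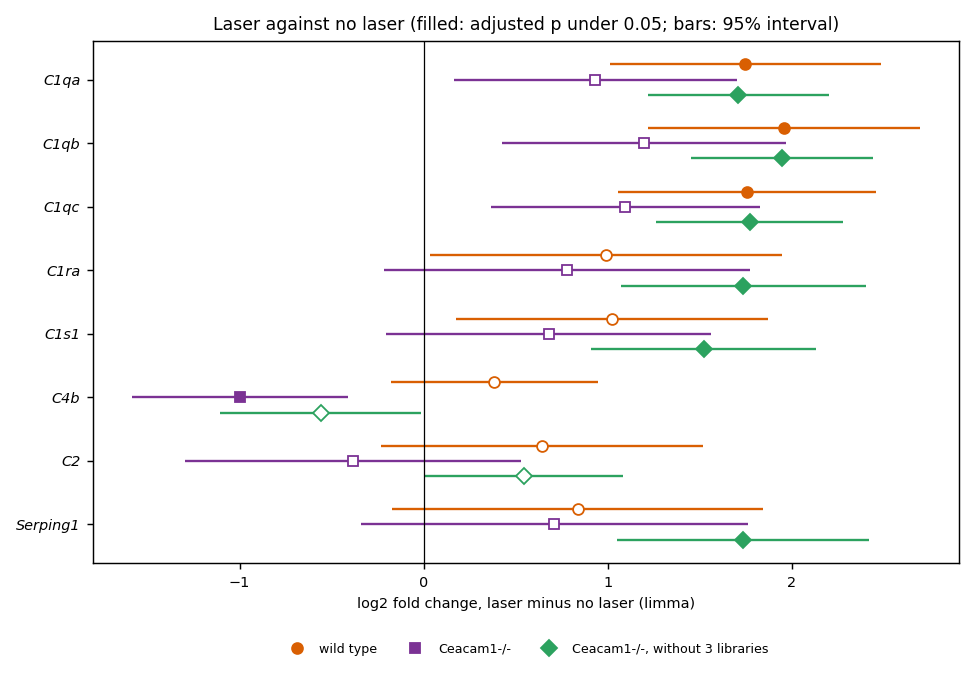
Log2 fold change of each gene, laser against no laser, with its 95% confidence interval from limma, in wild type (circles), in Ceacam1-/- (squares) and in Ceacam1-/- without libraries 14, 15 and 18 (diamonds). Filled symbols passed an adjusted p of 0.05, which holds for the 3 C1q chains in wild type, for C4b alone in Ceacam1-/- and for 6 genes once the 3 libraries are left out.

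Whether laser acted differently in the genotypes was tested by the interaction. No member was called, nor was any of the 19950 genes (0%) by limma, while 1241 genes (6.22%) had an unadjusted p under 0.05 and C4b was the 1 member among them. The laser difference of C4b was lower in Ceacam1-/- by -1.38 ± 0.39 on the log2 scale (limma, adjusted p = 0.64), the 19th lowest p of all genes. The interaction of C2 was -1.03 ± 0.61, and those of the C1q chains were between -0.81 ± 0.51 (C1qa) and -0.66 ± 0.49 (C1qc). Without libraries 14, 15 and 18 those of C1qa, C1qb and C1qc were -0.04, -0.01 and 0.02, with 95% intervals of the C1qa difference from -0.68 to 0.61, and that of C4b was -0.94 ± 0.34 (adjusted p = 0.999). Without all 5 libraries of high photoreceptor level the C4b interaction was -0.61 ± 0.34 (limma, unadjusted p = 0.0846), and with array weights -0.79. With photoreceptor level as a covariate the C4b interaction was -1.03 ± 0.38 (limma, unadjusted p = 0.0126). In the fit without the 3 libraries, C1ra had 0.75 ± 0.42 and Serping1 0.90 ± 0.43, and Serping1 and C4b were the 2 members with an unadjusted p under 0.05, against 2.32% of genes.

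Whether the deletion changed these genes in untreated tissue was asked of the 8 libraries without laser. C4b was 2.05-fold higher in Ceacam1-/- tissue, with groups that did not overlap but without passing the threshold, and the other 7 members overlapped between the genotypes. The 4 Ceacam1-/- values of C4b (2248, 2503, 2670 and 4516) were all above the 4 wild type values (1116, 1431, 1473 and 1637), against 0.922% of genes with all Ceacam1-/- libraries above and 0.434% with all below. Its log2 difference was 1.03 ± 0.25 (95% interval 0.47 to 1.60) with the 9th lowest p of 20057 genes, 0.00251, and an adjusted p of 0.999 (limma). No gene passed in this comparison (0%), and 307 (1.53%) had an unadjusted p under 0.05. The study did report some differentially expressed genes between these genotypes, with its own count model that held sex as a covariate. The highest C4b value came from library 23, which had a high photoreceptor level and also the highest summed glial markers without laser, 84470 against 21092 to 44569, and the part of either was not tested. Without the 5 libraries of high photoreceptor level the difference was 0.71 ± 0.18 (limma, adjusted p = 0.909). With photoreceptor level as a covariate it was 1.11 ± 0.25 (limma, adjusted p = 0.999). The same 4 Ceacam1-/- libraries also enter the laser difference of C4b in Ceacam1-/- and its interaction, so these results are not independent.

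Of the other members, C2 had the largest difference without laser, 0.52 ± 0.37, and C1ra the lowest, -0.26 ± 0.42. The C1q chains were between 0.21 ± 0.26 (C1qc) and 0.31 ± 0.23 (C1qa), C1s1 was -0.09 ± 0.38 and Serping1 -0.17 ± 0.38. All of these groups overlapped. Leaving out 1 library moved the difference from 0.16 to 0.47 for C1qa, 0.13 to 0.43 for C1qb, 0.053 to 0.39 for C1qc and 0.32 to 0.80 for C2. The 95% interval of C1qa reached from -0.20 to 0.82 and that of Serping1 from -1.03 to 0.70, so that differences within these bounds were not excluded.

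Among laser-treated mice, all 8 members had lower means on the log2 scale in Ceacam1-/-, and none passed the test. The differences lay between -0.51 ± 0.37 for C2 and -0.29 ± 0.44 for Serping1, and limma called 4 of 19757 genes (0.0202%). No member had groups apart, against 0.147% of genes, and no member had an unadjusted p under 0.05, against 4479 genes (22.7%). Without libraries 14, 15 and 18 all 8 differences turned positive, from 0.09 ± 0.22 for C4b to 0.73 ± 0.23 for Serping1 (limma, adjusted p = 0.349), and again none passed. Of these, C2, Serping1, C1ra and C1s1 had an unadjusted p under 0.05 (0.00526, 0.00595, 0.0198 and 0.0365), 4 of 8 members against 1623 of 19316 genes (8.4%). In that fit the median log2 difference of the marker lists, with 0 genes called in each, was 0.61 for fibroblast, 0.15 for myeloid, 1.12 for lymphocyte, -0.53 for pigment epithelium and -0.82 for muscle markers, against -0.47, -0.54, 0.28, -1.47 and -1.41 with all libraries. Median interactions without the 3 libraries were 0.92 for fibroblast, -0.07 for myeloid, 1.20 for lymphocyte, -0.43 for pigment epithelium and -0.55 for muscle markers. Those of photoreceptor and lens markers were 1.92 and 1.27. The part of these lists in the members' differences was not tested. The direction of the genotype difference with laser thus depended on 3 of 16 libraries.

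**Figure D3:**
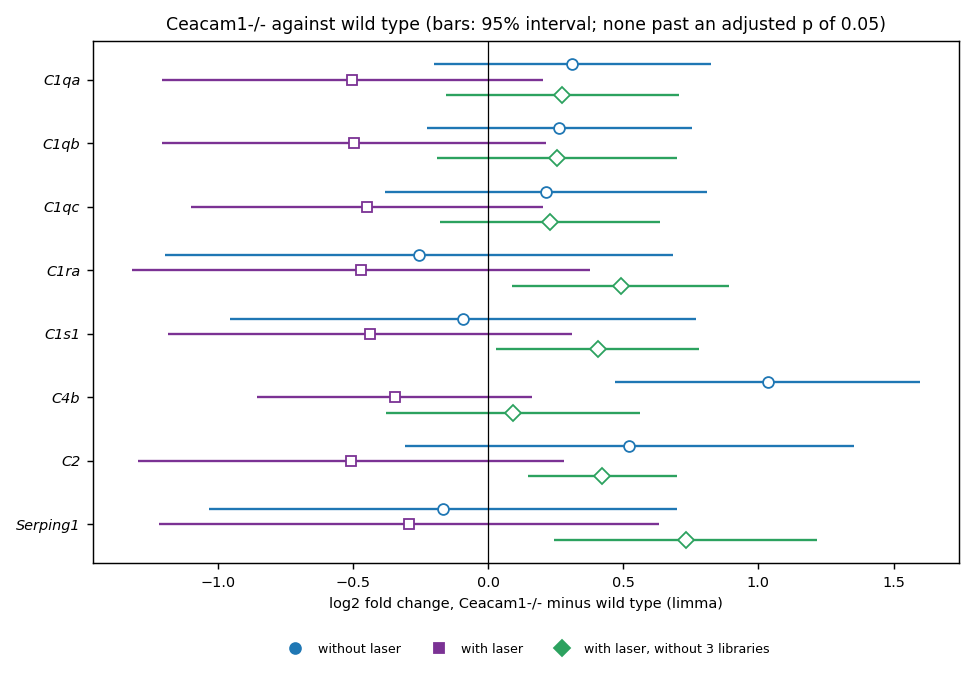
Log2 fold change of each gene, Ceacam1-/- against wild type, with its 95% confidence interval from limma, without laser (circles), with laser (squares) and with laser without libraries 14, 15 and 18 (diamonds). C4b without laser is at 1.03 with an interval above 0, all 8 squares are below 0 and all 8 diamonds above it, and no value passed an adjusted p of 0.05.

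The members fell into sets that varied together across the 24 libraries. These correlations of log2 levels are given as a description, since the points share library composition, groups and overlapping photoreceptor content. Pearson's r was between 0.987 and 0.990 among the C1q chains, and still 0.971 to 0.983 once group means were removed. C1ra and C1s1 had r = 0.994, and Serping1 had 0.959 with C1ra and 0.953 with C1s1. Between the C1q chains and these 3 genes r was 0.680 to 0.771, and 0.609 to 0.684 within groups. C4b had lower values, 0.518 with C2, between 0.190 and 0.266 to the C1q chains and 0.227 to 0.307 to C1ra, C1s1 and Serping1, which became 0.628 to 0.669 and 0.518 to 0.588 within groups. C2 had 0.580 to 0.643 with the C1q chains and 0.759 to 0.788 with C1ra, C1s1 and Serping1, which became 0.777 to 0.808 and 0.826 to 0.884 within groups. Once libraries 14, 15 and 18 were left out, r between the C1q chains and C1ra, C1s1 and Serping1 was 0.724 to 0.805 over 21 libraries, and C4b had 0.030 to 0.068 with the C1q chains, -0.16 to -0.057 with C1ra, C1s1 and Serping1 and 0.099 with C2. C2 then had 0.610 to 0.649 with the C1q chains and 0.656 to 0.714 with C1ra, C1s1 and Serping1. Within groups of these 21, r was 0.906 to 0.966 among the C1q chains and 0.839 to 0.981 among C1ra, C1s1 and Serping1, but -0.00087 to 0.242 between these sets. In these groups C4b had 0.303 to 0.337 with the C1q chains, -0.063 to 0.101 with C1ra, C1s1 and Serping1 and -0.18 with C2. There C2 had 0.272 to 0.438 with the C1q chains and 0.444 to 0.653 with C1ra, C1s1 and Serping1.

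**Figure D4:**
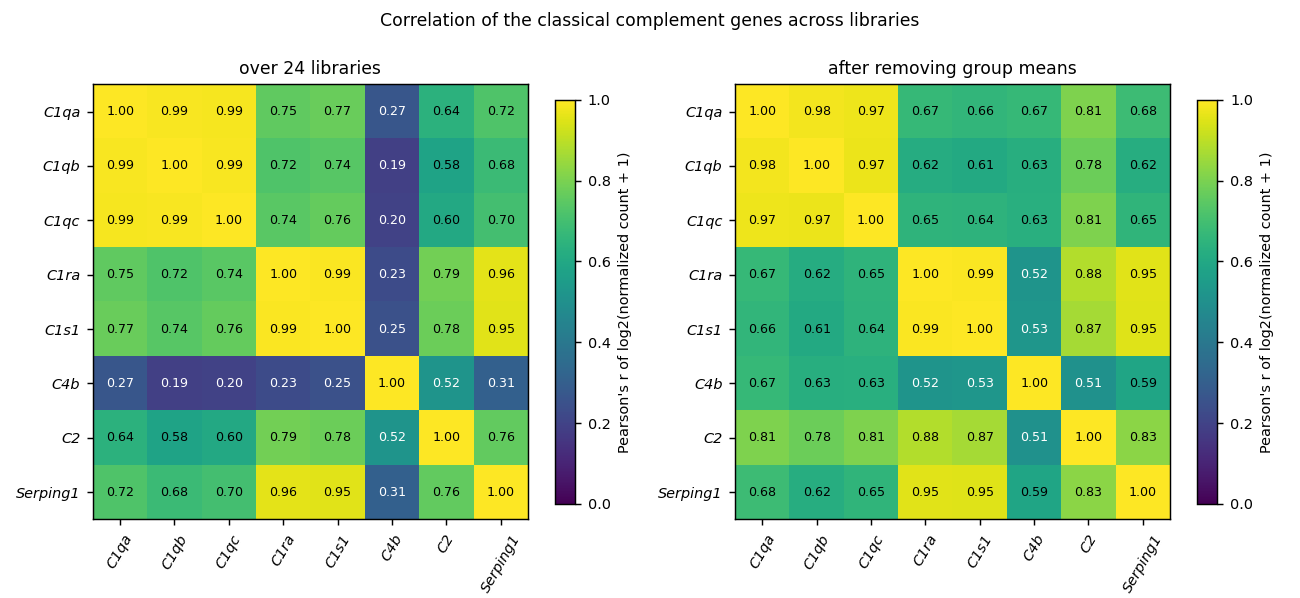
Pearson's r between the log2 levels of each pair of the 8 genes over 24 libraries (left) and after the mean of each group was removed (right), with color and printed value giving r. The C1q chains form a block from 0.97 to 0.99, C1ra, C1s1 and Serping1 a block from 0.95 to 0.99, and the C4b row is the lowest on the left.

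Within each of the 24 libraries, the ratios of 3 pairs taken from these close sets varied less than the levels of their genes. The high r of these pairs over the same libraries already implies this. Per kilobase of canonical transcript, C1s1 was 1.16 to 1.65 times C1ra, a coefficient of variation of 9.24%, although each gene ranged 7.52-fold and 9.98-fold over the libraries. C1qb was 0.538 to 0.866 times C1qa (11.2%), and C1qc 0.632 to 1.01 times C1qa (10.4%), with 7.91-fold to 8.59-fold ranges of the chains. In wild type without and with laser, mean C1qb to C1qa ratios were 0.605 and 0.702, and in Ceacam1-/- 0.586 and 0.706. Those of C1qc to C1qa were 0.757 and 0.761, and 0.710 and 0.796. Of 15729 protein-coding genes outside the members, those most like C1qa over 24 libraries were Fcgr3 (r = 0.977), Ppp1r18 (0.970), Ms4a7 (0.968), Pld4 (0.967) and Cyba (0.967). Those most like C1s1 were Dab2 (0.969), Bicc1 (0.967), Shc1 (0.961), Gpc4 (0.956) and Slco2a1 (0.952). Fcgr3 is an Fc receptor and Cyba a subunit of the phagocyte oxidase, while Gpc4 is a heparan sulfate proteoglycan and Slco2a1 a prostaglandin transporter.

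Photoreceptor level moved with several members. C1s1 was between 587 and 1179 normalized counts in all 5 libraries of high photoreceptor level, and of the other 19 only library 25, at 1070, was that low. C1qa was low in the 3 such laser libraries and lowest of its group in library 21, but in the middle of its group in library 23. C4b was at its lowest in libraries 14, 15 and 18 and at its highest, 4516, in library 23. With photoreceptor level as a covariate, 5 members were called higher with laser in Ceacam1-/-, the C1q chains, C1ra and C1s1, against 3.54% of genes, and 3 in wild type, the C1q chains, against 4.29%.

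**Figure D5:**
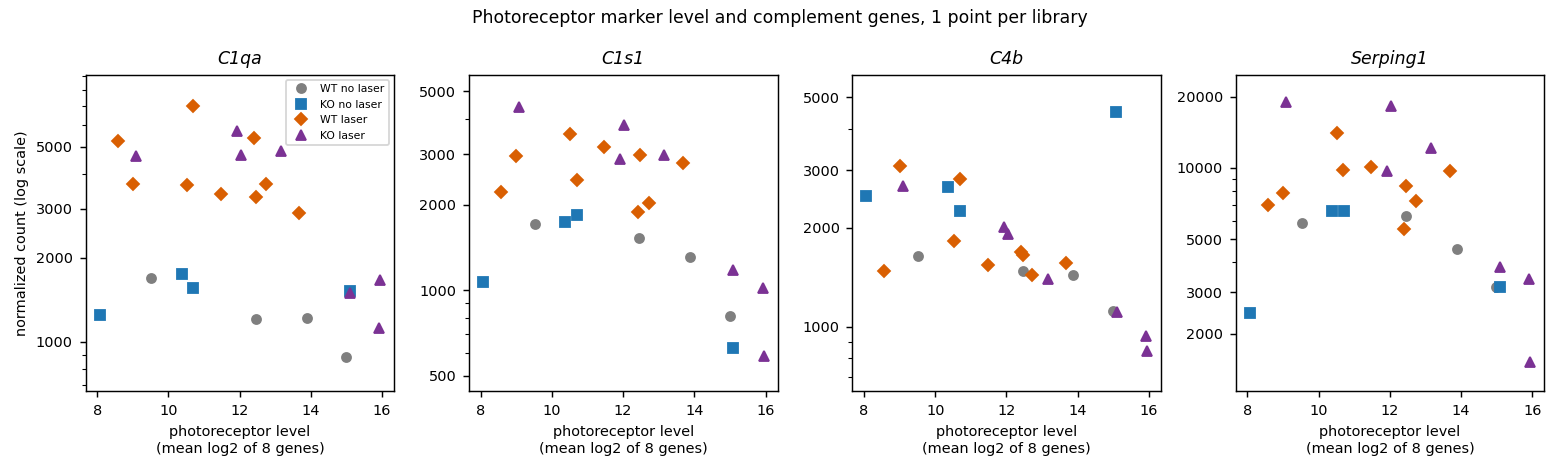
Normalized counts (log axis) of C1qa, C1s1, C4b and Serping1 against the mean log2 level of 8 photoreceptor markers, with 1 point per library and symbols for the 4 groups. The 5 libraries at 14.99 or above lie to the right of all others, where C1s1 is low in each. C4b is lowest of its group in libraries 14 and 21 and next lowest in libraries 18 and 15. Its highest value, 4516, is in library 23.

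The close relatives of the members were sparse. C1rb and C1s2, copies of C1ra and C1s1, had group means of at most 3.96 and 5.64 normalized counts and did not pass the filter. C1rl, a C1r-like protease, had 103 ± 33.8 (SD, n = 4) in wild type without laser and 161 ± 22.4 (n = 9) with it, a log2 difference of 0.69 ± 0.34 (SE; limma, adjusted p = 0.253). C4a, the near-identical neighbour of C4b, had group means from 11.8 to 20.3, so that reads shared by the pair could have been split in either direction. The exons of C2 overlap those of Zbtb12 (mean of 54.7 normalized counts) and of the readthrough gene Gm20547 (5.57), and the libraries do not mark strand. Exons of C1qb and C1qc also overlap those of Gm69251 and exons of C4b those of Gm65055, neither of which is in the table, and exons of C1s1 those of Gm16567 (0.159).

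Of the pathway's neighbours, receptors for complement fragments were called in both genotypes. In wild type, 5 of 8 (median log2 difference 2.38) were called higher with laser and 0 lower, against 4.23% of all genes called higher, and in Ceacam1-/- 4 of 8 and 0, against 2.07%. The wild type call of Itgam, a chain of complement receptor 3, was lost without library 21 (limma, adjusted p = 0.0612). Itgb2, the common chain of complement receptors 3 and 4, rose from 138 ± 33.2 (SD, n = 4) to 1343 ± 285 (n = 9) in wild type (log2 difference 3.27 ± 0.35 SE, limma adjusted p = 2.57e-06). C3ar1, the C3a receptor, rose by 3.09 ± 0.41 (adjusted p = 5.03e-05), Itgax by 3.24 ± 0.50 (0.0003) and C5ar1, the C5a receptor, by 2.50 ± 0.40 (0.000417). All 4 also rose in Ceacam1-/-, by 2.16 ± 0.36, 2.55 ± 0.42, 2.18 ± 0.53 and 2.13 ± 0.42 in that order. With only the Ceacam1-/- libraries fitted, which called 0.177% of genes higher, all 4 calls were lost (limma, adjusted p = 0.118, 0.104, 0.205 and 0.167). Itgax also lost its call without library 24 (0.104) or 25 (0.0596), and C5ar1 without library 25 (0.0509).

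C3, the protein on which all pathways meet, had 385 ± 133 (SD, n = 4) and 962 ± 327 (n = 9) normalized counts without and with laser in wild type. The difference of 1.28 ± 0.39 (SE) missed the threshold (limma, adjusted p = 0.0569), as did 0.97 ± 0.41 in Ceacam1-/- (0.18). Of the 8 genes listed as C3 and terminal components, 4 were tested and none passed, while Hc, C8a, C8b and C9 were below the filter. Without libraries 14, 15 and 18, 2 were called higher in wild type and 1 in Ceacam1-/-, against 7.82% and 7.6% of all genes. Of the alternative pathway, Cfb (factor B) rose by 1.88 ± 0.35 in wild type and 1.65 ± 0.36 in Ceacam1-/- (limma, adjusted p = 0.00166 and 0.0128), and Cfp (properdin) by 1.55 ± 0.29 and 1.34 ± 0.30 (0.00192 and 0.015), while Cfd did not pass. In Ceacam1-/- both calls were lost with only its own libraries fitted (limma, adjusted p = 0.172 and 0.14), and that of Cfb without library 25 (0.0801). Of the lectin pathway, 4 of 8 genes were tested and none passed.

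Among 11 regulators of C4b and C3b, 9 were tested and 1 was called in each genotype, Cfi, the protease that inactivates both fragments. It went from 1.87 ± 0.76 (SD, n = 4) to 42.0 ± 26.3 (n = 9) normalized counts in wild type and from 2.06 ± 2.77 (n = 4) to 25.6 ± 14.2 (n = 7) in Ceacam1-/-. Cfi passed the filter only through the laser libraries, so that its calls and folds are not read. Lair1, a collagen receptor that also binds C1q, was the 1 of 6 tested triggers and receptors of C1q to rise, by 2.15 ± 0.38 in wild type (adjusted p = 0.00105) and 1.65 ± 0.39 in Ceacam1-/- (0.0206). The latter call was lost with only the Ceacam1-/- libraries fitted (limma, adjusted p = 0.212) and without library 24 (0.0855) or 25 (0.122). Without libraries 14, 15 and 18, 2 of the 6 were called higher in each genotype, against 7.82% of all genes in wild type and 7.6% in Ceacam1-/-. The pentraxins Crp and Apcs did not pass the filter. Of 9 immunoglobulin genes, 4 were tested and Ighm rose by 1.63 ± 0.42 in wild type (limma, adjusted p = 0.0237), but by 1.04 without library 21 (0.172), which ended the call, as did leaving out library 22 (0.0518). In Ceacam1-/- its difference was 0.90 ± 0.44 (0.254), and the interaction was not called (-0.73 ± 0.61, limma adjusted p = 0.677).

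Markers of the cells that could supply these transcripts moved with the members. Of 12 myeloid markers, led by Ctss and none at 0 in any library, 10 rose with laser in wild type and 9 in Ceacam1-/-, against 4.23% and 2.07% of all genes, with median log2 differences of 2.27 and 1.56. Their summed counts went from a median of 7593 (lowest 6349, highest 12294) to 37952 (27376 to 55590) in wild type and from 9498 (8697 to 10334) to 35581 (10282 to 51478) in Ceacam1-/-. Of 8 fibroblast markers, led by Col1a1 and none at 0, 2 rose in wild type, Col3a1 by 2.50 ± 0.57 and Lum by 1.90 ± 0.52, and Lum alone in Ceacam1-/-, genes named after their values were seen. Their summed counts went from a median of 139450 (85595 to 193736) to 321250 (200365 to 462545) in wild type, and from 111587 (38546 to 219678) to 426496 (45932 to 672550) in Ceacam1-/-. The part of these cells in the members' differences was not tested. Of the endothelial (led by Plvap), pigment epithelium, photoreceptor, muscle (Atp2a1), lens (Cryaa) and lymphocyte (Nkg7) lists, limma called 0 genes with laser in either genotype, and of 6 glial genes Vim alone rose, in wild type. The photoreceptor median was -1.40 in wild type and 2.30 in Ceacam1-/-, or 0.55 without libraries 14, 15 and 18, with summed median counts of 168444 and 46189 without and with laser in wild type and 21886 and 137873 in Ceacam1-/-. In Ceacam1-/- the medians were -2.09 for muscle and -1.61 for pigment epithelium, with an unadjusted p under 0.05 in 6 of 6 and 6 of 8 genes, against 3997 of all 19950 genes. Lens markers had medians of 2.12 in wild type and 2.42 in Ceacam1-/-, with 0 of 6 at an unadjusted p under 0.05, and their summed median counts were 427 and 3515 without and with laser in wild type and 260 and 4904 in Ceacam1-/-. Without the 5 libraries of high photoreceptor level, 6 of 6 muscle genes were called lower in Ceacam1-/- and 1 in wild type, against 6.26% and 2.63% of all genes. Without libraries 14, 15 and 18, 12 and 11 myeloid and 4 and 6 fibroblast genes were called higher in wild type and Ceacam1-/-, against 7.82% and 7.6% of all genes. The liver plasma proteins Alb, Fgb, Serpina1a and Ahsg were at 0 in 21, 23, 24 and 18 of the 24 libraries, and Apoa1, the most abundant of the list, averaged 6.58 normalized counts.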

How the data were processed

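Total RNA of choroidal tissue was made into SMART-Seq libraries, which do not mark strand, and sequenced by the authors on an Illumina NextSeq 2000. Per the submitters' processing notes and the study's methods, the authors checked reads with FastQC 0.11.5, quantified transcripts with Salmon 1.10.3 on GRCm39, summed them to genes with tximport and normalized with DESeq2 1.44.0. The deposited values are these normalized counts, a signal scaled between libraries. Whole reads could not be recovered: 35.8% to 77.2% of low values per library lay within 5% of a whole multiple, so no count test was run and the depth in reads is unknown.

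Values were analysed as log2(normalized count + 1) with limma 3.58.1 (R 4.3.3, trend) in genes with a mean of at least 10, at a Benjamini-Hochberg adjusted p of 0.05 over all genes tested. Fold changes are on this scale. Both laser comparisons and the interaction came from 1 fit of 24 libraries, and the genotype comparisons from fits of 8 libraries without and 16 with laser. The study's sex covariate and its excluded library are not in the labels and were not used. The fit was tested on simulated data. P-values measure only the spread between libraries, since the labels do not say that each came from its own mouse.

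Members and lists were chosen with earlier results of these data known. Named genes were the 8 members, Ceacam1, the close relatives, C3, up to 4 called genes per pathway list by lowest p, the most abundant gene of each marker list (that of the photoreceptor list is not reported here) and the genes at 0, and the 5 genes most like C1qa and C1s1. Itgam, Cfd, Col3a1, Lum and the pathway genes below the filter were named after their values were seen. Alternatives covered pseudocounts, filters, scaling, variance models, array weights, a Y-linked covariate, the libraries fitted and leaving out each library. Those on photoreceptor level were chosen after seeing the data. Positions come from GENCODE vM39, which matched 99.1% of gene IDs. Tables and figures were made with Python 3.11.15, pandas 2.3.3, numpy 2.4.6 and matplotlib 3.10.9.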

Additional observations from a re-analysis of the deposited data

Results flagged for a closer look

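Of 44 groups of 4, 7 or 9 libraries examined for 1 value far from the rest, 3 held one. Chance gives about 1 in 20 for normally distributed values, and normalized counts without a log were used here. Ceacam1 was 1171 normalized counts in library 28, labelled Ceacam1-/- without laser, against 508 in the next highest of that group. In wild type mice with laser, Ceacam1 was 8367 in library 19 against 1776 in the next. C4a was 45.7 in library 28 against 13.5 in the next Ceacam1-/- library without laser. No member of the classical pathway held such a value in any group. The rule looks for 1 distant value and is not built to flag several low libraries together, such as 14, 15 and 18.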

How the results depend on the processing

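No paired analysis was possible because each library number belongs to 1 library. Count tests were not run, since whole reads were not recovered. The 3 members called with laser in wild type stayed 3 whichever library was left out, and became 6 with only the libraries compared (8.13% of genes called higher), 7 with array weights (16.2%) and 5 without the 3 (7.82%) or the 5 (5.76%) libraries of high photoreceptor level. In Ceacam1-/- the 1 call became 0 with a pseudocount of 0.5, no filter, quantile normalization, upper-quartile scaling, no trend, a Y-linked covariate or only the libraries compared, 6 with array weights (9.5% called higher) and without the 3 (7.6%) or the 5 libraries (8.66%), and 5 with photoreceptor level as covariate (3.54%), and ranged from 0 to 2 when each library was left out. C4b, the 1 member called, was not among these 6 or 5, which were called higher, the 2 without library 18 were C1qb and C1qc, and the 1 without library 15 was C1qb, higher. The other comparisons called 0 members when any 1 library was left out. The causes were not tested.

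Some log2 differences changed sign. With array weights, C2 with laser in Ceacam1-/- became 0.24, the interactions of C1ra and Serping1 0.13 and 0.18, and the genotype differences without laser of C1ra, C1s1 and Serping1 0.10, 0.25 and 0.22. Genotype differences with laser then became 0.18 (C1qa), 0.16 (C1qb), 0.17 (C1qc), 0.24 (C1ra), 0.16 (C1s1), 0.29 (C2), 0.027 (C4b) and 0.41 (Serping1). Without libraries 14, 15 and 18 they were 0.27, 0.25, 0.23, 0.49, 0.41, 0.42, 0.092 and 0.73 in the same order, C2 with laser in Ceacam1-/- was 0.54, and the interactions of C1qc, C1ra, C1s1 and Serping1 were 0.016, 0.75, 0.50 and 0.90. Without all 5 libraries, C2 with laser in Ceacam1-/- was 0.31, the interactions of C1qa, C1qb, C1qc, C1ra, C1s1 and Serping1 were 0.12, 0.12, 0.13, 0.60, 0.41 and 0.95, and C1s1 without laser was 7.38e-05. With the covariate, C2 was 0.070, the interactions of C1ra, C1s1 and Serping1 were 0.68, 0.45 and 0.62, and the genotype differences with laser of C1ra, C1s1, C4b and Serping1 were 0.11, 0.082, 0.041 and 0.32.

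Leaving out 1 library moved the interactions of C1ra from -0.58 to 0.12 and of Serping1 from -0.40 to 0.24, the genotype differences without laser of C1ra from -0.48 to 0.11, of C1s1 from -0.32 to 0.22 and of Serping1 from -0.38 to 0.10, and that of Serping1 with laser from -0.53 to 0.072.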
